A study of Mus musculus with 2 samples.

Results

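Alpha-beta T cells were examined in EGFP-sorted cells of 2 mouse breast tumours, each profiled as 1 droplet single-cell RNA library. RNA is counted in unique molecular identifiers (UMIs), each standing for 1 captured RNA molecule. A cell with at least 500 UMIs and at most 10% mitochondrial UMIs was taken as an alpha-beta T cell by 5 limits on 11 genes. It had at least 2 UMIs of the T cell receptor subunit genes Cd3d and Cd3e together. It had at most 1 UMI of the gamma-delta receptor genes Trdc and Tcrg-C2, at most 1 of the natural killer (NK) cell genes Ncr1 and Klrb1c, at most 1 of the B cell genes Cd79a and Cd79b, and at most 2 of the macrophage genes C1qa, C1qb and C1qc. These limits left 186 of 2135 kept cells of the Met-1 tumour (8.71%, 95% interval 7.55 to 9.99) and 29 of 592 kept cells of the PyMT tumour (4.90%, 3.30 to 6.96), which makes 215 of 2727 in all. The cells were chosen by measured values, so the levels of those 11 genes are a description and no finding.

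Both libraries came from C57BL/6 mice of the genotype inAd-Chaser-mTmG, which carries Adiponectin-rtTA, TRE-Cre and a Rosa26 mT/mG reporter. In such mice doxycycline switches on Cre where the adiponectin promoter is active, and Cre turns a cell and its descendants from membrane tdTomato to membrane EGFP. The label is therefore set by a promoter of adipocytes, and the study asked about adipocytes that lose their identity in tumours. The Met-1 library was labelled as a xenograft tumour of Met-1, a mouse mammary tumour line, while the text on the series' design says that EO771 cells were implanted, so the implanted line is uncertain. The PyMT library came from a tumour that arose after a cross to mice with the PyMT oncogene. The cells of both had been sorted for EGFP and against tdTomato, and the age, the sex and the number of animals per library are not given in the sources used here. With 1 library per group no statistical test between the tumours was possible. Each interval in parentheses is an exact 95% interval for counting error and leaves out any spread among animals. The intervals of levels and of ratios come from UMIs pooled over cells, so they leave out the spread among cells too. That spread was wide for some genes, so these intervals are narrower than the true uncertainty.

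Alpha-beta T cells carry a receptor of an alpha and a beta chain, held at the surface by the CD3 proteins, and read peptides on MHC molecules. The coreceptor CD8 marks cells that see MHC class I and can become killers, and CD4 marks cells that see MHC class II and help or restrain other cells. A naive or central memory T cell keeps LEF1 and TCF7, the nuclear partners of beta-catenin, together with CCR7 and S1PR1, which guide it through lymph nodes and out of tissue. An effector cell lowers these and makes granzymes, perforin and chemokines.

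The Met-1 T cells held 1362977 UMIs with a median of 6493.5 per cell (600 to 23835), and the PyMT T cells 118927 UMIs with a median of 3396 (1614 to 15760). The libraries shared 0 barcodes. Of 326 Met-1 and 52 PyMT cells with at least 2 Cd3d and Cd3e UMIs, the gamma-delta limit removed the most in Met-1 (106 of 326), and the macrophage limit in PyMT (11 of 52). The 6 Met-1 T cells with exactly 2 such UMIs held Trac at 403 CPM (counts per 1000000 UMIs) and Lef1 at 173 CPM. In the 21 Met-1 cells that missed the limit with 1 UMI, Trac stood at 35.4 CPM and Lef1 at 16.1 CPM. In PyMT, 4 cells lay just inside, with Trac at 224 CPM and Lef1 at 335 CPM, and 11 just outside, with 7.6 and 15.2 CPM. RNA of other cell types was seen in a few members. In the PyMT library 1 CD8 cell of 15760 UMIs, 13.3% of all UMIs of the PyMT T cells, held 398 UMIs of luminal epithelial genes, and 6 Met-1 cells held at least 20 UMIs of fibroblast, mural, luminal or MHC class II genes.

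The 6 genes given as markers stood far higher in the T cells than in NK and B cells of the same library, and Trac was close to its level in gamma-delta T cells. Lef1 (ENSMUSG00000027985, chr3:131110471-131224356, plus strand, GRCm38), the transcription factor named above, stood at 238 CPM (213 to 265) in Met-1 T cells and at 109 CPM (58.2 to 187) in PyMT T cells. The 169 NK cells of Met-1 (at least 2 UMIs of Ncr1 and Klrb1c and at most 1 of Cd3d and Cd3e) held it at 0.55 CPM and the 243 B cells, chosen likewise by Cd79a and Cd79b, at 5.31 CPM. Dapl1 (ENSMUSG00000026989, chr2:59484653-59505020, plus strand), a gene found in resting CD8 T cells, stood at 167 CPM (146 to 190) in Met-1 T cells and 84.1 CPM in those of PyMT, with 0 UMIs in NK and B cells of Met-1. Cd28 (ENSMUSG00000026012, chr1:60716800-60773359, plus strand), the receptor of the second activating signal, stood at 189 CPM (166 to 213) in Met-1 T cells and 269 CPM (184 to 380) in those of PyMT, against 10.5 CPM in NK cells. Bcl11b (ENSMUSG00000048251, chr12:107910403-108003602, minus strand), the factor that fixes T cell identity, stood at 183 CPM in Met-1 T cells and 101 CPM in those of PyMT, against 4.98 CPM in NK cells. Trac (ENSMUSG00000076928, chr14:54220521-54224206, plus strand), the constant segment of the receptor's alpha chain, stood at 470 CPM (435 to 508) in Met-1 T cells and 782 CPM (631 to 958) in those of PyMT. It was nearly as high in the 48 Met-1 cells over the gamma-delta limit alone (gamma-delta T cells), at 424 CPM, and low in NK cells, at 9.41 CPM. Cd8b1 (ENSMUSG00000053044, chr6:71322788-71337494, plus strand), the beta chain of CD8, stood at 496 CPM in Met-1 T cells and 420 CPM in those of PyMT, against 145 CPM in gamma-delta cells. These markers were given with the group, so their height is a description, and Trac does not separate the group from gamma-delta cells. No marker was seen in every cell. In Met-1, Trac had a UMI in 164 of 186 cells, Bcl11b in 130, Cd8b1, Lef1 and Cd28 in 110 each and Dapl1 in 57. In PyMT these were 24, 9, 14, 7, 22 and 4 of 29 cells.

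**Figure D1:**
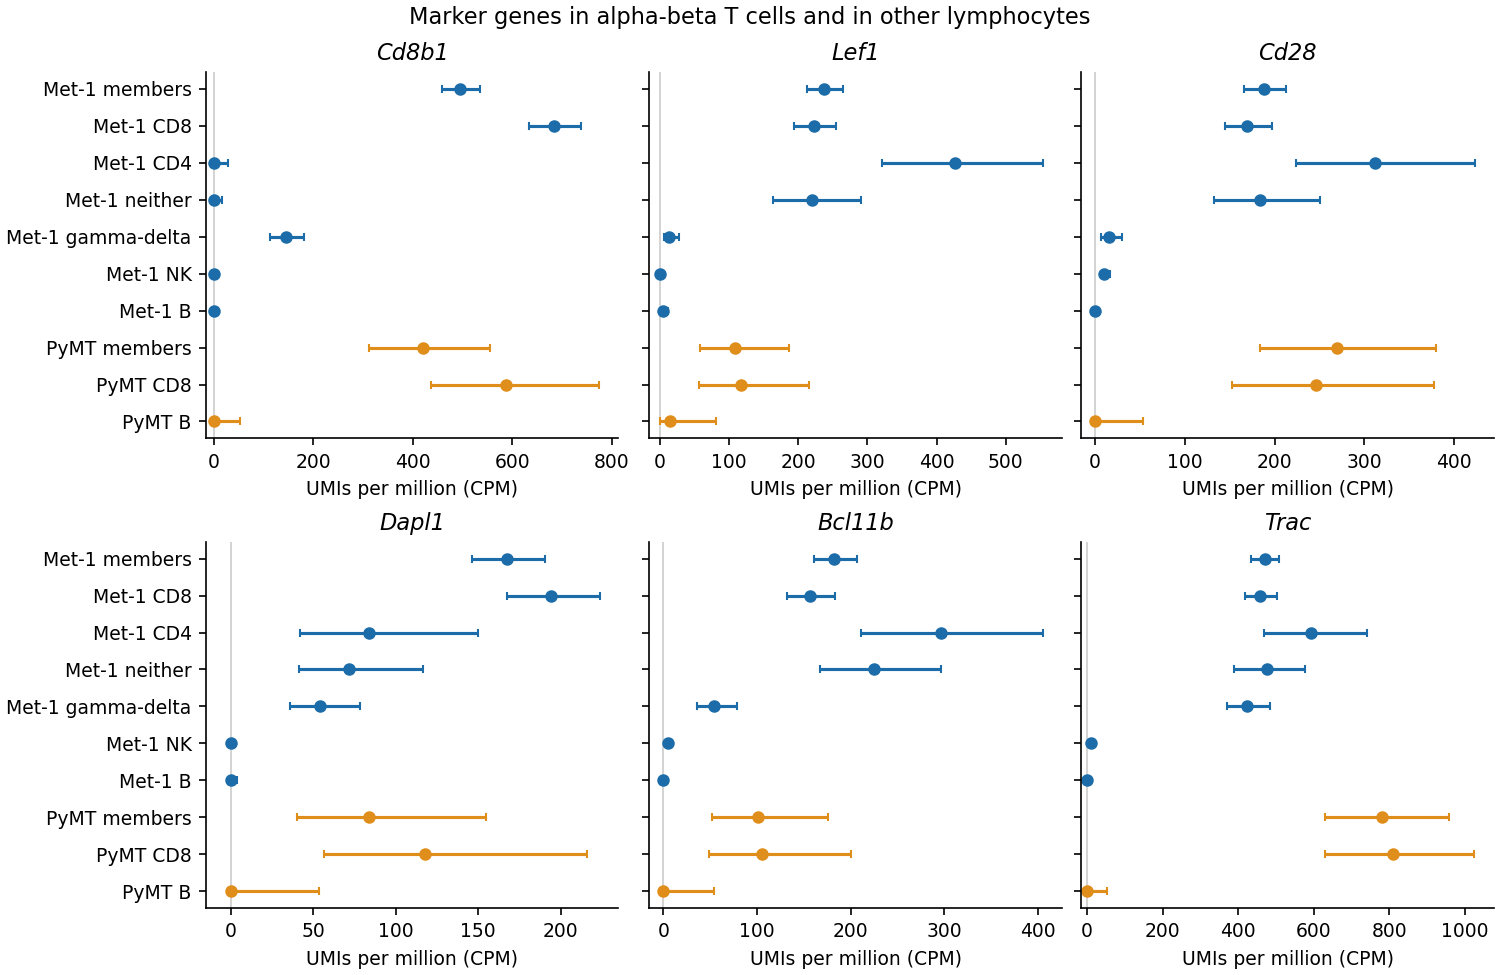
Level of the 6 marker genes in CPM (x axis) for each set of cells (rows), with blue for Met-1 and orange for PyMT. Points are summed counts over the cells of a set and bars exact 95% Poisson intervals; Lef1 stands at 238 CPM in Met-1 T cells and 0.55 CPM in NK cells, while Trac is similar in T cells (470 CPM) and gamma-delta cells (424 CPM).

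The promoters of 2 of these genes and of Gzmb, the killer gene with the widest contrast inside the group, are shown because the results turn on a naive programme with Lef1 and Dapl1 and an effector programme with Gzmb. Each line gives the 250 bases before a start site in RefSeq (GRCm38.p6), 5′ to 3′ along the gene, with motif matches in capitals. The windows are chr2:59484403-59484652 for Dapl1, chr3:131156044-131156293 for Lef1 and chr14:56262335-56262584 (minus strand) for Gzmb, and overlap 0 annotated exons. The Lef1 window belongs to a start site inside the gene, far from the starts in the annotation, and the other 3 Lef1 windows held no match.
Dapl1: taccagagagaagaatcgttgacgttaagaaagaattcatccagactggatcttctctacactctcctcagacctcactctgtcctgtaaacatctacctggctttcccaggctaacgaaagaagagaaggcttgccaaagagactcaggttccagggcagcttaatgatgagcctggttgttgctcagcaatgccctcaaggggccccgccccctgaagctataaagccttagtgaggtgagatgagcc
Lef1: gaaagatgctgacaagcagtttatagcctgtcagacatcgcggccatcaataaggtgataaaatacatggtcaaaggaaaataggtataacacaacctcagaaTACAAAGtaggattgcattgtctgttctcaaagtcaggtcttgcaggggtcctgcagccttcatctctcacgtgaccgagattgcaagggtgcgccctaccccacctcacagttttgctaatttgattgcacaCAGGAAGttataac
Gzmb: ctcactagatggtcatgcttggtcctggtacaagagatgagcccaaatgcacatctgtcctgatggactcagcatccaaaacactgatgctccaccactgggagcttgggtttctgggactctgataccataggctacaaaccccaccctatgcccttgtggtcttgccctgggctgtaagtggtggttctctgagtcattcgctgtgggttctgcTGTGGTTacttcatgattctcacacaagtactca
The motifs searched on both strands were CTTTGAA or CTTTGAT or CTTTGTA or CTTTGTT for TCF/LEF factors, TGTGGTT for RUNX, CAGGAAG for ETS and AGGTGTGA for T-box factors. The Lef1 window held a TCF/LEF match whose first base lies at -147 from the start and an ETS match at -14, the Gzmb window a RUNX match at -34, and the Dapl1 window no match. Over all 32851 such windows, 14.8% held a TCF/LEF match, 4.40% a RUNX match, 10.8% an ETS match and 1.12% a T-box match. The list of naive genes matched 16 of 20 genes with 28 windows, of which 9 held a TCF/LEF match (Foxp1, Lef1, Ms4a6b, Nsg2, Satb1, St8sia6 and Txk) and 1 a RUNX match. The list of cytotoxic genes matched 18 of 23 genes with 22 windows, of which 3 held a TCF/LEF match (Gzmk, Gzmm and Klrc1) and 4 a RUNX match (Gzma, Gzmb, Gzmc and Klrk1). An ETS match was held by 5 windows of each list, and a T-box match by 1 cytotoxic window, that of Nkg7, and 0 naive windows. A match describes letters only, and the starts used in these cells were not measured.

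Most Met-1 T cells with a coreceptor carried CD8. Of 186 cells, 122 (65.6%, 58.3 to 72.4) had a UMI of Cd8a or Cd8b1 and none of Cd4, 23 (12.4%, 8.0 to 18.0) had Cd4 alone, 3 had both and 38 (20.4%, 14.9 to 26.9) neither. In PyMT these were 18 (62.1%), 2, 0 and 9 of 29 cells. Among cells with a single coreceptor CD8 made up 84.1% (77.2 to 89.7) in Met-1 and 90.0% (68.3 to 98.8) in PyMT. After every cell with at least 1000 UMIs was thinned to 1000, these shares were 92.9% (78 of 84 cells) and 90.9% (10 of 11). Cells with fewer UMIs are left out of every thinned share. Among the alpha-beta T cells these were 1 CD8 cell of Met-1 and 0 cells of PyMT. The Cd4 RNA was sparse, with 39 UMIs in the 26 Met-1 cells that had any, and 1 UMI in 16 of them, so a cell with no Cd4 UMI was not shown to lack the gene. Both chains of CD8 were detected together in 95 Met-1 cells, the alpha chain alone in 15 and the beta chain alone in 15.

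Naive and cytotoxic genes were both read in most of the T cells, in very different amounts. Met-1 T cells held the 20 genes of the naive and central memory list at 4850 CPM (4734 to 4969) and the 23 genes of the cytotoxic list at 4921 CPM (4804 to 5040). In the same library NK cells held 1479 CPM of the naive and 25380 CPM of the cytotoxic list, and gamma-delta T cells 1791 and 12792 CPM. UMIs of both lists were present in 172 of 186 Met-1 T cells (92.5%; 69.2% after thinning). In Met-1 65 of 186 T cells (34.9%; 34.1% after thinning) had more cytotoxic than naive UMIs. This was so of 51 of 122 CD8 cells (41.8%, 32.9 to 51.1; 39.7% after thinning), 13 of 38 cells with neither coreceptor (34.2%) and 1 of 23 CD4 cells (4.35%). It was so of 168 of 169 NK cells, 45 of 48 gamma-delta T cells and 0 of 243 B cells. Across CD8 cells of Met-1, the naive list had a median of 5130 CPM per cell (quartiles 2782 and 6831) and the cytotoxic list 1991 CPM (quartiles 1159 and 6993), with single cells from 168 to 75861 CPM. The CD4 cells had medians of 7414 and 425 CPM, and 6 of them held 0 cytotoxic UMIs. In PyMT 19 of 29 T cells (65.5%; 58.6% after thinning) had more cytotoxic than naive UMIs, and 13 of 18 CD8 cells (72.2%; 66.7% after thinning). The cytotoxic list is not specific to lymphocytes, since 129 of 170 PyMT macrophages (75.9%) also held more of it than of the naive list.

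**Figure D2:**
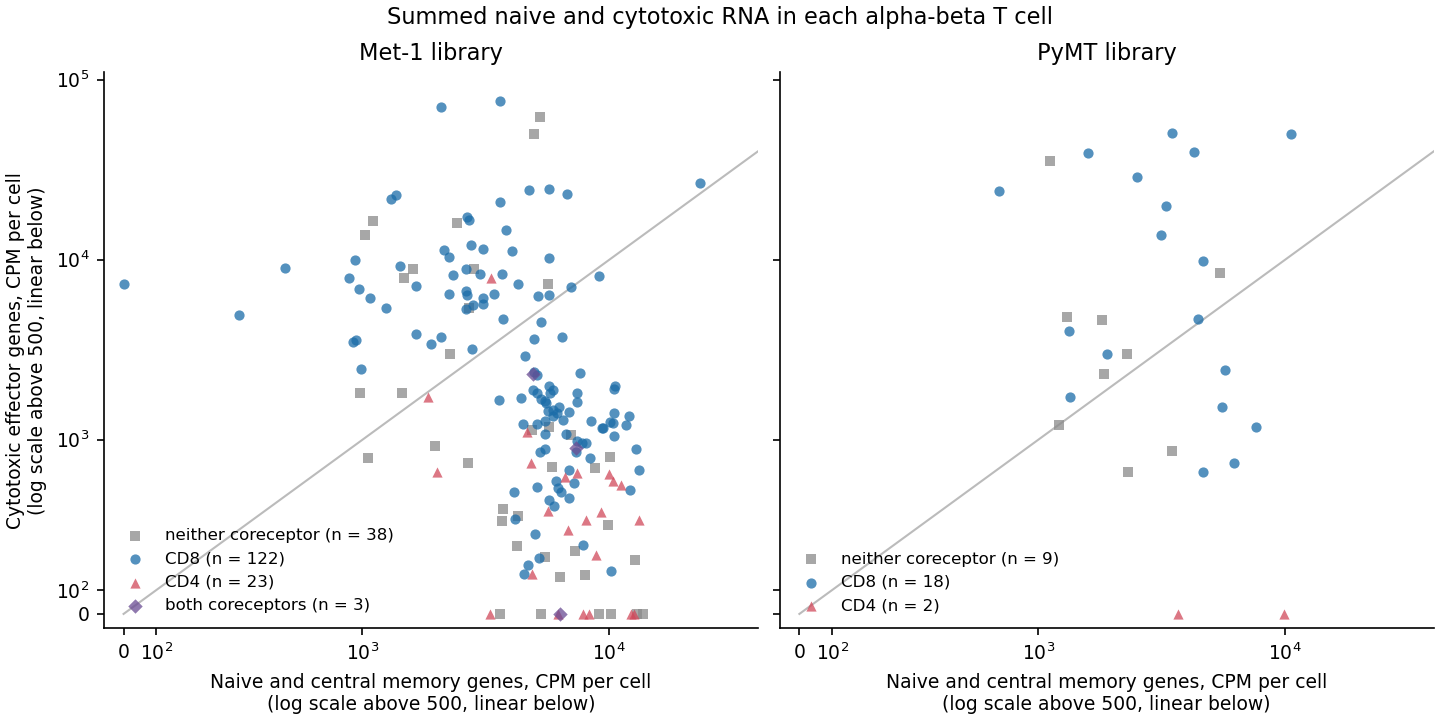
Summed CPM of the naive and central memory list (x axis) and of the cytotoxic list (y axis) in each alpha-beta T cell, left Met-1 and right PyMT, on axes that are logarithmic above 500 CPM and linear below. Symbols mark the coreceptor and the line marks equal values; in Met-1, 51 of 122 CD8 cells and 1 of 23 CD4 cells lie above the line.

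Within the Met-1 CD8 cells, Gzmb was detected less often in cells with a UMI of Lef1 or of Ccr7. The lists as a whole were not split in this way, since 121 of 122 CD8 cells (99.2%; 80.2% after thinning) held UMIs of both. Gzmb, a granzyme that kills target cells from within, had a UMI in 43 of 122 CD8 cells (35.2%; 24.8% after thinning), against 16 of 243 B cells (6.58%), which should lack it. The median depth was 7344 UMIs in CD8 cells and 3506 in B cells. Lef1 had a UMI in 75 of 122 CD8 cells (61.5%; 16.5% after thinning), against 5 of 243 B cells (2.06%). Gzmb was detected in 13 of the 75 cells with Lef1 (17.3%, 9.57 to 27.8; median depth 6715 UMIs) and in 30 of the 47 without it (63.8%, 48.5 to 77.3; 7915 UMIs). The homing receptor gene Ccr7 was detected in 53 of the 75 cells with Lef1 (70.7%) and in 9 of the 47 without (19.1%), and Gzmb in 8 of the 62 cells with Ccr7 (12.9%) and 35 of the 60 without (58.3%). Dapl1 went with Lef1, which had a UMI in 34 of 42 cells with Dapl1 (81.0%) and in 41 of 80 without. Xcl1, a chemokine that draws cross-presenting dendritic cells, went with Gzmb and was detected in 33 of 43 cells with it (76.7%) and 21 of 79 without (26.6%). In PyMT all 29 T cells were taken, not CD8 cells alone, and their median depth was lower, at 3396 UMIs. Gzmb was found in 0 of 7 of these cells with Lef1 and 4 of 22 without. Ccr7 had a UMI in 0 of the 7 cells and 3 of the 22, which is not the Met-1 order. Lef1 with Dapl1 (3 of 4 cells, and 4 of 25 without) and Xcl1 with Gzmb (3 of 4, and 5 of 25 without) lay in the Met-1 order. So few PyMT cells cannot tell whether these genes go together there. In Met-1 CD4 cells Gzmb was found in 3 of 15 cells with Lef1 and 2 of 8 without.

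CD8 cells of Met-1 held more RNA of effector genes than CD4 cells did. These sets were chosen by Cd8a, Cd8b1 and Cd4, so those genes are not compared. A gene was counted as higher or lower at a 2-fold difference of (CPM + 10), and entered with at least 10 UMIs expected in the smaller set. Of 1526 genes, 131 (8.58%) were higher and 31 (2.03%) lower in the 122 CD8 cells than in the 23 CD4 cells. The median log2 ratio over these genes was 0.11, and centred on it the counts were 111 and 42. All log2 ratios are of (CPM + 10). PyMT held only 2 CD4 cells, so the comparison was made in Met-1 alone.

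Of 8 cytotoxic genes that entered, 7 were higher and 0 lower in CD8 cells, with a median log2 ratio of 3.23. Gzmb stood at 938 CPM in CD8 and 38.0 CPM in CD4 cells, 24.7-fold higher (10.5 to 76.2), with a UMI in 43 of 122 and 5 of 23 cells. Nkg7, a protein of cytotoxic granules, stood at 1152 and 53.2 CPM (21.6-fold, 10.5 to 53.9), with a UMI in 111 of 122 CD8 and 3 of 23 CD4 cells. It was thus found in most CD8 and in few CD4 cells. Ccl5, a chemokine of effector and memory T cells, stood at 1917 and 160 CPM (12-fold, 7.83 to 19.4). Ctsw (391 and 30.4 CPM), Klrd1 (214 and 15.2 CPM), Ccl4 (193 and 38.0 CPM) and Gzma (141 and 7.61 CPM, 15 CD8 cells) were higher as well. Id2, a regulator of effector cells, stood at 174 and 83.7 CPM and did not reach 2-fold. Outside that list, Cst7, an inhibitor of granule proteases (103 CPM, at least 4.52-fold higher), and Serpinb9, an inhibitor of granzyme B (107 CPM, at least 4.70-fold), had UMIs in 58 and 40 CD8 cells. Both had 0 UMIs in CD4 cells, as did Ier5l (102 CPM in 34 CD8 cells, at least 4.48-fold). Cd7 was present in 61 CD8 cells at 328 CPM, Ly6c2 in 50 at 290 CPM and Ctla2a in 62 at 274 CPM, and each had 1 UMI in CD4 cells.

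Runx3, the transcription factor that silences Cd4 and drives the CD8 lineage, stood at 378 CPM in CD8 and 45.6 CPM in CD4 cells (8.29-fold, 3.77 to 22.7), with a UMI in 104 of 122 and 3 of 23 cells. It was the 1 of 9 T cell transcription factors that was higher, and 0 were lower; the median log2 ratio was -0.88. Cd40lg, the helper signal to B cells and dendritic cells, had 3 UMIs in CD8 cells and 23 in CD4 cells (57.0-fold higher in CD4, 17.2 to 297). It had too few UMIs to enter and was chosen after its values were seen. Of the genes that define helper lineages 0 entered, and Foxp3, the factor of regulatory T cells, had a UMI in 2 of 186 Met-1 cells, both without a coreceptor UMI, and in 1 of 29 PyMT cells.

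CD4 cells held more RNA of naive and memory genes. Of 16 naive genes that entered, 3 were lower and 1 higher in CD8 cells, with a median log2 ratio of -0.68. Igfbp4 stood at 103 CPM in CD8 and 472 CPM in CD4 cells (4.57-fold higher in CD4, 3.28 to 6.33), with a UMI in 39 of 122 and 14 of 23 cells. Il7r, the receptor for the survival cytokine IL-7, stood at 144 and 373 CPM (2.59-fold, 1.83 to 3.60), and S1pr1, the exit receptor, at 114 and 281 CPM. Both lay outside the counting intervals of the other set. Lef1 stood at 223 CPM (194 to 254) and 426 CPM (322 to 553), Tcf7 at 130 and 251 CPM, Klf2 at 707 and 1369 CPM, Satb1 at 429 and 821 CPM and Ccr7 at 357 and 540 CPM, each under 2-fold. Relative to the median log2 ratio of all genes, 0.11, 7 naive genes were lower by 2-fold or more, with Lef1, Tcf7, Klf2 and Satb1 added to the first 3. Dapl1 was the exception, at 194 CPM (167 to 224) in CD8 and 83.7 CPM (41.8 to 150) in CD4 cells (2.32-fold, 1.27 to 4.73). Lef1 and Dapl1 thus lay on opposite sides of the coreceptor split although both were used as markers of the whole group.

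**Figure D3:**
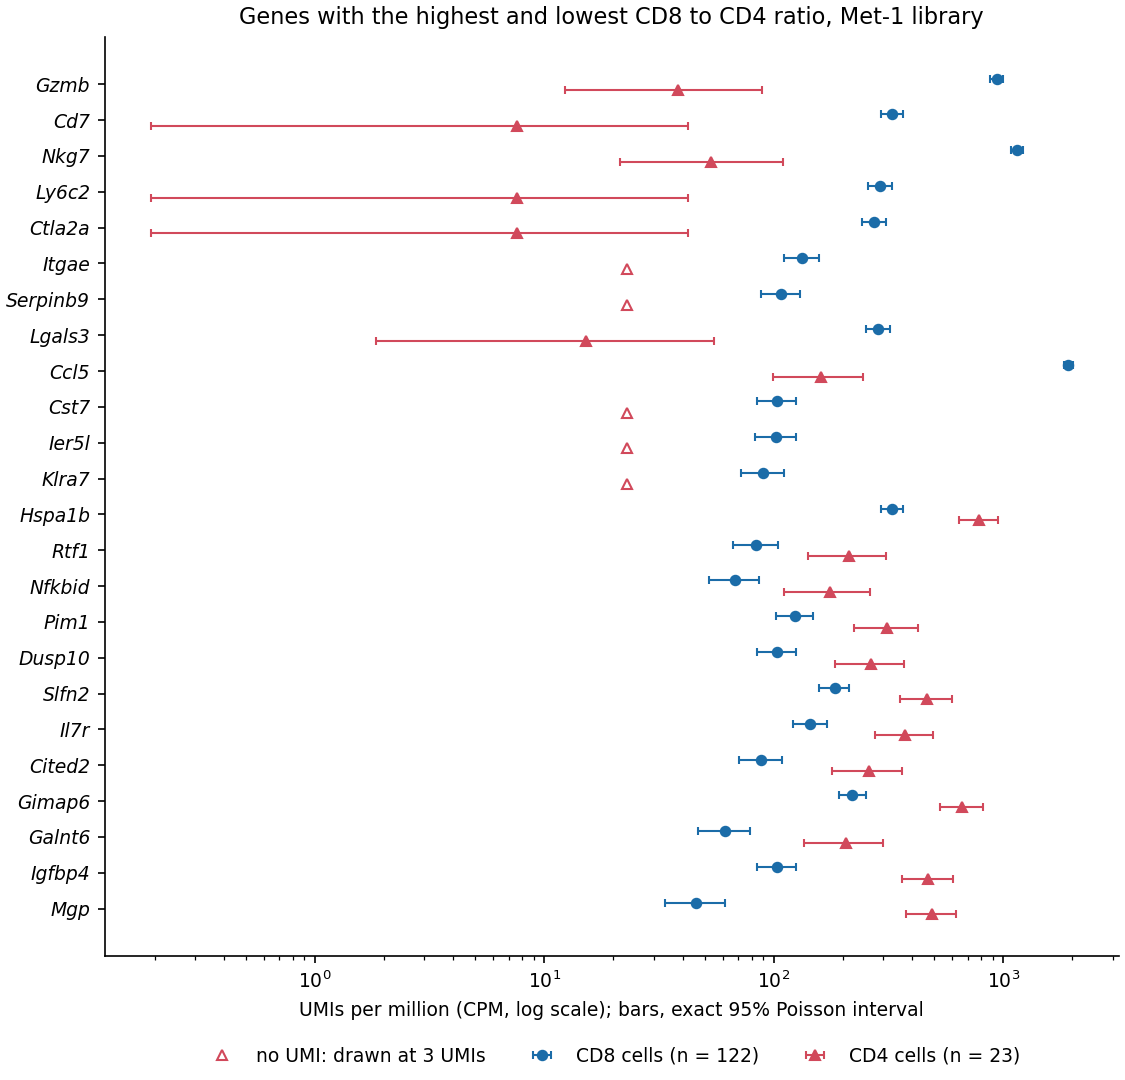
Level in CPM (x axis, log scale) of the 12 genes with the highest and the 12 with the lowest CD8 to CD4 ratio in Met-1, for 122 CD8 cells (circles) and 23 CD4 cells (triangles), with exact 95% Poisson intervals as bars; open symbols mark 0 UMIs drawn at 3 UMIs. Gzmb stands at 938 against 38.0 CPM, and Igfbp4 at 103 against 472 CPM.

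Other groups of T cell genes were compared likewise, where 8.58% of all 1526 genes were higher and 2.03% lower in CD8 cells. The proximal signalling and cytoskeleton groups lay near the share that was higher, and the smallest groups are too small to set against it. Of the list of unconventional T cells 3 of 13 genes entered, and all 3 were higher in CD8 cells (median log2 3.24). These were Ly6c2, a surface protein of memory T cells, Fcer1g (517 and 45.6 CPM) and Tyrobp (133 and 45.6 CPM), and the last 2 are NK marker genes too. Of 6 residency genes 3 were higher in CD8 cells (median log2 1.0). These were Itgae, the integrin that holds T cells in epithelia, at 133 CPM in 49 cells with 0 UMIs in CD4 cells (at least 5.82-fold), Xcl1 at 667 and 145 CPM (4.62-fold, 2.93 to 7.72) and Cxcr6 at 99.1 and 22.8 CPM. Of 5 receptor complex genes Cd3g was higher (1167 and 578 CPM, just at 2-fold and under it relative to the median of all genes) and Cd247, the zeta chain, lower (98.1 and 243 CPM). Zap70, the kinase that docks on the receptor, was the 1 of 11 proximal signalling genes that was higher (107 and 38.0 CPM). Of 10 glycolysis genes 3 were higher (Pfkp, Aldoa and Tpi1; median 0.87), and of 22 immediate early and heat shock genes 3 were lower (Hspa1a, Hspa1b and Nfkbia; median -0.59). None of 8 interferon response genes, 13 MHC class I genes and 4 costimulation genes reached 2-fold. Lgals3 (284 and 15.2 CPM) and Anxa2 (146 and 30.4 CPM) were higher among 19 genes of the cytoskeleton and adhesion. EGFP stood at 2066 CPM in CD8 and 2715 CPM in CD4 cells.

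Among the genes most in excess in CD4 cells, Gimap6 (220 and 662 CPM, 3.01-fold higher in CD4), a GTPase of lymphocytes, was found in 20 of 23 CD4 cells. Galnt6 (61.3 and 205 CPM), Cited2 (87.9 and 259 CPM), Slfn2 (184 and 464 CPM), Dusp10 (103 and 266 CPM), Pim1 (124 and 312 CPM), Nfkbid (67.4 and 175 CPM), Rtf1 (83.8 and 213 CPM) and Hspa1b (327 and 783 CPM) were lower in CD8 cells. Mgp, a matrix protein of fibroblasts, had the lowest ratio (46.0 and 487 CPM), and 58 of its 64 UMIs in CD4 cells came from 1 cell that also held 190 fibroblast and 63 mural UMIs; without the top cell the log2 ratio went from -3.15 to -0.56. The 8 NK marker genes summed to 971 CPM (910 to 1035) in CD8 cells, with Klra8 and Klra4 at 0, and to 98.9 CPM in CD4 cells, against 9792 CPM in NK cells. All 4 of them that entered (Klra7, Gzma, Tyrobp and Fcer1g) were higher in CD8 cells. The 3 MHC class II genes that were higher in CD8 cells came largely from 1 cell with 1037 such UMIs, and the dendritic cell list fell from 924 to 202 CPM without its top cell. The part of other cell types in these results was not tested.

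A subset of CD8 cells held Fcer1g, the gamma chain of Fc receptors that gamma-delta T and NK cells also use. This split was chosen after the values were seen. In Met-1 20 of 122 CD8 cells (16.4%, 10.3 to 24.2) had at least 2 Fcer1g UMIs and held 97.2% of the Fcer1g UMIs of CD8 cells. So did 12 of 38 cells with neither coreceptor, 0 of 23 CD4 cells, 41 of 48 gamma-delta T cells, 168 of 169 NK cells, 5 of 243 B cells and, in PyMT, 3 of 29 T cells. The 20 CD8 cells had a median of 8851 UMIs and the other 102 a median of 7081. Scrublet, a caller of droplets with more than 1 cell, called 0 of the 20 cells.

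Naive genes were lower in the CD8 cells with Fcer1g, and several were read in few or none of these cells. The naive list summed to 1857 CPM (1678 to 2050) in them, with a UMI in 19 of 20 cells, and to 5293 CPM (5131 to 5458) in the other 102. The sum in the cells with Fcer1g was near the one given above for gamma-delta T cells, so it does not show a naive state. Lef1 stood at 23.5 CPM in the cells with Fcer1g and 278 CPM in the other CD8 cells, Ccr7 at 23.5 and 449 CPM, and Tcf7 at 4.70 and 165 CPM. Of the 20 cells with Fcer1g, 4 had a UMI of Lef1, 3 of Ccr7 and 1 of Tcf7. Dapl1 and Il7r had 0 UMIs in the cells with Fcer1g, where 3 UMIs would be 14.1 CPM, against 248 and 184 CPM. Cd28 (42.3 and 205 CPM), the receptor brake Cd5 (4.70 and 66.6 CPM) and Ly6c2 (75.2 and 350 CPM) were low too. The cytotoxic list summed to 11434 CPM (10984 to 11897) in the cells with Fcer1g and 3885 CPM (3747 to 4027) in the others. The genes named here were picked after the split was seen. Gzmb was at 3140 CPM against 326 CPM, Xcl1 at 1787 against 357 CPM, Cd7 at 1100 against 114 CPM and Ikzf2, the factor Helios, at 207 against 31.3 CPM. Itgae (273 and 94.0 CPM), Itga1 (118 and 23.5 CPM), Cd160 (179 and 52.2 CPM), Tyrobp (451 and 44.4 CPM) and the NK receptor gene Klra7 (371 CPM in 7 cells and 11.8 CPM) followed the same order. Eomes, a T-box factor of effector and memory cells, did not, at 32.9 and 37.9 CPM, and Gzma (301 and 96.6 CPM) had UMIs in only 2 of the 20 cells. Cd8b1 was detected in 10 of the 20 cells with Fcer1g (451 CPM) and in 98 of the 102 others (748 CPM), while Cd8a stood at 733 and 487 CPM.

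Receptor genes were read in these cells, which the rule had already chosen as T cells by Cd3d and Cd3e, so their levels are a description. Against gamma-delta T cells, 0 of the 5 receptor complex genes that entered were higher in alpha-beta T cells of Met-1, and Cd3g was lower. Trac and Trbc2 thus do not set the cells with Fcer1g apart from gamma-delta T cells, and high Cd3g does not either. Trac stood at 559 CPM in 18 of the 20 cells and 431 CPM in the others, Trbc2 at 1067 and 1100 CPM, and Cd3g at 2134 and 898 CPM. Trdc had 1 UMI in them and Ncr1 0, both limited by the rule that chose the T cells. The 12 cells with Fcer1g and neither coreceptor showed the same direction in Gzmb (1343 CPM, against 122 CPM in the other 26), Xcl1 (4919 and 40.5 CPM), Ikzf2 (354 and 122 CPM) and Lef1 (70.7 and 340 CPM).

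**Figure D4:**
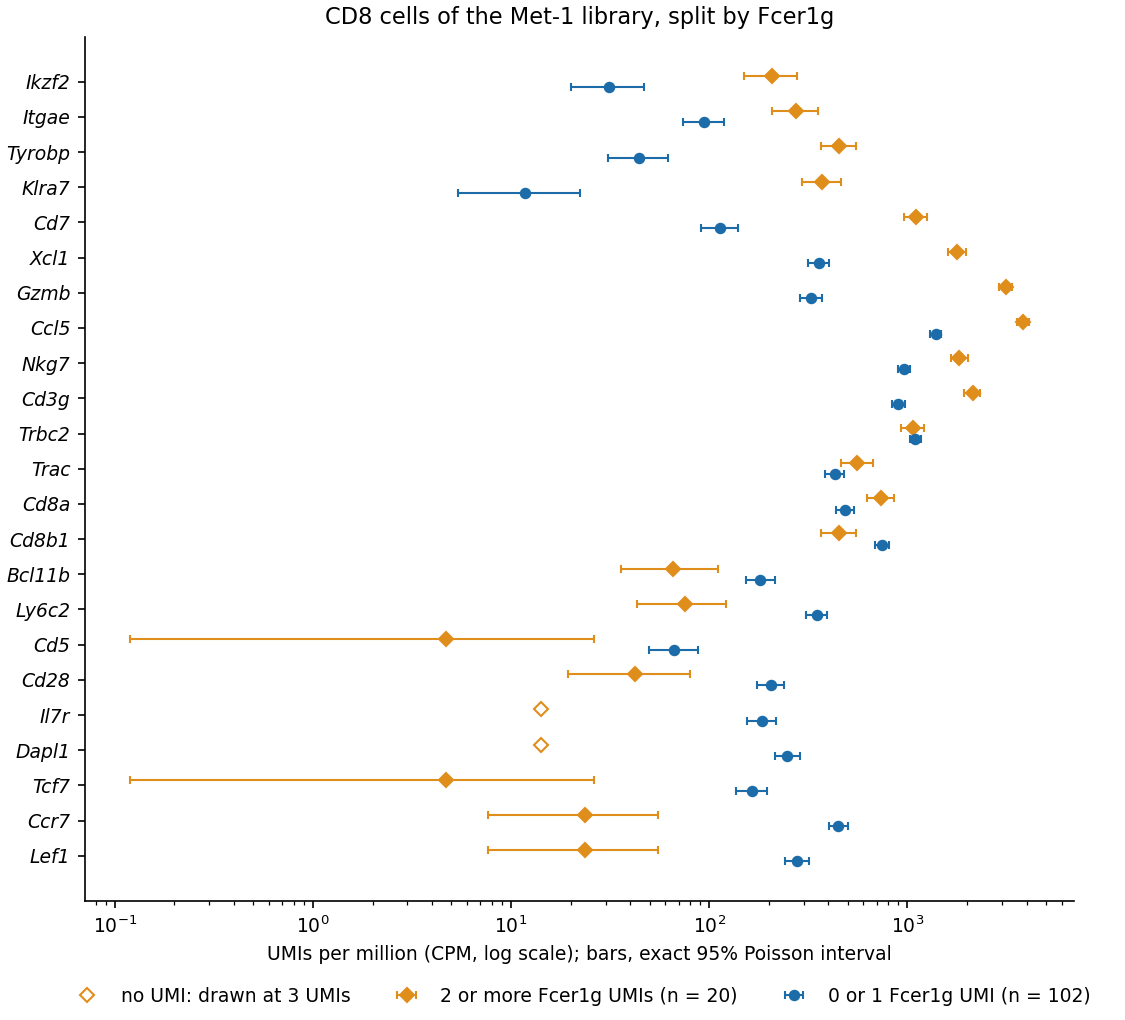
Level in CPM (x axis, log scale) of 23 genes in Met-1 CD8 cells with at least 2 Fcer1g UMIs (20 cells, diamonds) and with fewer (102 cells, circles), with exact 95% Poisson intervals as bars; open symbols mark 0 UMIs drawn at 3 UMIs. Gzmb stands at 3140 against 326 CPM and Lef1 at 23.5 against 278 CPM, while Trbc2 is at 1067 and 1100 CPM.

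The comparison with NK and gamma-delta cells of the Met-1 library rests on the split that the rule made, and its counts are a description. Of 7898 genes, 195 (2.47%) were higher and 401 (5.08%) lower in alpha-beta T cells than in NK cells, with a median log2 ratio of -0.16. Without ribosomal and mitochondrial genes the median was 0.02 and the counts were 311 and 341, and after centring on the median they were 246 and 278. The ends of the list held the naive genes on 1 side and granzymes and NK receptors on the other. Ccr7 stood at 359 CPM in T cells and 1.11 CPM in NK cells, Il7r at 184 and 1.66 CPM, S1pr1 at 141 and 0.55 CPM, Gramd3 at 224 and 2.77 CPM and Dapl1 at least 101-fold higher than its floor of 3 UMIs. Gzmc stood at 64.6 and 4641 CPM (71.9-fold lower), Gzma at 132 and 3516 CPM, Tyrobp, the adaptor of activating NK receptors, at 169 and 2157 CPM, and Klra4 and Klra8 had 0 UMIs (at least 61.1-fold and 55.8-fold lower). Klrb1b (1.47 and 184 CPM), Spp1 (15.4 and 307 CPM) and Car2 (40.4 and 585 CPM) were lower too. Of 19 naive genes 16 were higher and 0 lower (median log2 2.60, or 2.82 with Dapl1 at its bound), and of 19 cytotoxic genes 17 were lower and 0 higher (-1.87). Of 16 proximal receptor signalling genes 7 were higher, among them Lat, Cd5 and Themis, and 0 lower.

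Against the 48 gamma-delta cells, 140 of 5055 genes (2.77%) were higher and 199 (3.94%) lower, with a median log2 ratio of -0.14. Without ribosomal and mitochondrial genes the median was 0.04 and the counts were 281 and 149, and after centring they were 188 and 135, so that the larger of the 2 directions depended on the scaling. Ccr7 (359 and 17.4 CPM), Igfbp4 (178 and 5.81 CPM), Lef1 (238 and 13.5 CPM), Cd28 (189 and 15.5 CPM), S1pr1 (141 and 9.68 CPM) and Il7r (184 and 15.5 CPM) stood higher in alpha-beta T cells. Of 19 naive genes 15 were higher and 0 lower (median 2.25). Gzmc (64.6 and 887 CPM), Cd7 (318 and 1954 CPM), the interferon genes Cxcl10 (27.1 and 294 CPM) and Isg15 (109 and 718 CPM), and the gamma chain gene Tcrg-C4 (12.5 and 201 CPM) stood lower. Il17a had 0 UMIs in alpha-beta T cells, and all 115 UMIs of the gamma-delta set came from 1 cell. Of 21 interferon response genes 7 were lower and 0 higher (-0.52), and of 17 cytotoxic genes 9 were lower and Eomes alone higher (-1.17).

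Between the tumours, T cells of Met-1 held more RNA of naive genes and those of PyMT more Ccl5 and Id2. Of 1379 genes, 147 (10.7%) were higher and 74 (5.37%) lower in the 186 Met-1 than in the 29 PyMT cells, with a median log2 ratio of 0.01. Without ribosomal and mitochondrial genes the median was 0.13 and the counts were 194 and 48. The same libraries' C1q-high macrophages (698 and 170 cells) differed in some of these genes. Of 139 genes higher in Met-1 T cells that also entered in macrophages, 62 were higher there and 0 lower, and of 72 genes lower in Met-1 T cells 25 were lower and 0 higher. The share of all 1316 genes that differed in macrophages was not computed, so these overlaps are a description without a background. With the macrophage ratio taken from each gene the counts were 40 and 60. Tumour, mouse and library cannot be told apart with 1 library each.

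Naive genes were on the Met-1 side. Of 16 that entered 5 were higher and 0 lower, with a median log2 ratio of 0.72. Ccr7 stood at 359 CPM in Met-1 T cells and 75.7 CPM in those of PyMT (4.74-fold, 2.48 to 10.4), with a UMI in 99 of 186 and 3 of 29 cells. S1pr1 stood at 141 and 25.2 CPM (5.58-fold, 1.88 to 27.3), with a UMI in 96 and 3 cells. Satb1, a genome organiser of T cells, stood at 495 and 168 CPM (2.94-fold, 1.89 to 4.84), Igfbp4 at 178 and 50.5 CPM (3.53-fold, 1.60 to 9.72) and Lef1 at 238 and 109 CPM (2.18-fold, 1.25 to 4.13). These intervals were wide because PyMT gave few UMIs. The log2 ratio of Lef1 was 1.05, and 0.87 when only CD8 cells were compared. Tcf7 (154 and 92.5 CPM), Dapl1 (167 and 84.1 CPM) and Il7r (184 and 143 CPM) stayed under 2-fold. Summed over the list, Met-1 T cells held 4850 CPM and PyMT T cells 3204 CPM (2890 to 3542). In B cells of the same libraries the log2 ratios were 0.52 for Ccr7 and 0.77 for Satb1, and in macrophages 1.24 for S1pr1, so that part of the order was seen outside T cells.

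Cytotoxic genes went both ways. Of 8 that entered, Gzma and Gzmb were higher and Ccl5 and Id2 lower in Met-1 (median log2 -0.20). Ccl5 stood at 1707 CPM in Met-1 T cells and 6651 CPM in those of PyMT (3.90-fold higher in PyMT, 3.59 to 4.22), with a UMI in 96 of 186 and 21 of 29 cells, and its log2 ratio in macrophages was 0.74, in the other direction. Id2 stood at 183 and 622 CPM (3.39-fold higher in PyMT, 2.58 to 4.41). Gzmb stood at 786 and 345 CPM, with a UMI in 60 of 186 and 4 of 29 cells, and Gzma at 132 and 0 CPM (at least 5.24-fold, 20 cells, with 55 of 180 UMIs in 1 cell). Nkg7, at 926 and 1345 CPM, did not reach 2-fold. The list summed to 4921 CPM in Met-1 T cells and 10351 CPM (9781 to 10946) in those of PyMT, of which Ccl5 alone gave 1707 and 6651 CPM.

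Several genes with the highest Met-1 ratios stood higher in other cell types of that library too. Hnrnpa0, an RNA-binding protein, stood at 544 and 25.2 CPM, with a UMI in 178 of 186 and 3 of 29 cells, and its log2 ratio was 3.98 in T cells, 2.87 in macrophages and 3.30 in B cells. The heat shock gene Hspa1b (367 and 33.6 CPM) had log2 ratios of 3.11, 2.99 and 3.94 and Lars2 (213 and 16.8 CPM) of 3.05, 2.60 and 2.66 in the same order. All 3 genes thus differed by over 2-fold in each of the 3 cell types. Tnrc6c (134 and 0 CPM, at least 5.29-fold, 115 cells), Gpr183 (123 and 8.41 CPM), Arglu1 (162 and 16.8 CPM), Ctnnb1 (99 and 8.41 CPM), Ugcg (186 and 25.2 CPM) and Rel (130 and 16.8 CPM) were also higher in Met-1. Their log2 ratios in macrophages were 1.26, 1.49, 0.90, 0.74, 1.02 and 1.03 in that order. In B cells only Gpr183, Arglu1 and Rel entered, at 1.30, 0.70 and 0.67. For 2 of the highest genes 1 Met-1 cell gave most UMIs, namely all 161 of Ccl1 and 282 of 484 of H2-Eb1.

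At the PyMT end, the milk and epithelial genes Csn3, Lcn2, Trf and Wfdc18 had log2 ratios of -7.11 to -4.34, and 1 PyMT cell held 220 of 235, 133 of 140, 141 of 142 and 137 of 145 of their PyMT UMIs. This is the cell with 398 luminal UMIs; the luminal list stood at 3616 CPM in PyMT T cells, 310 CPM without it, and 80.7 CPM in Met-1. Neat1 (72 of 95 UMIs) and Serinc3 (30 of 59) also rested on 1 cell, and without the top cell their log2 ratios were -0.50 and -1.15. Lgals1, a galectin of activated T cells, stood at 260 and 1135 CPM (4.36-fold higher in PyMT, 3.55 to 5.33), Ikzf2 at 88.0 and 311 CPM (3.53-fold, 2.38 to 5.15, 10 of 29 cells), and Ppp1r16b at 80.7 and 294 CPM.

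**Figure D5:**
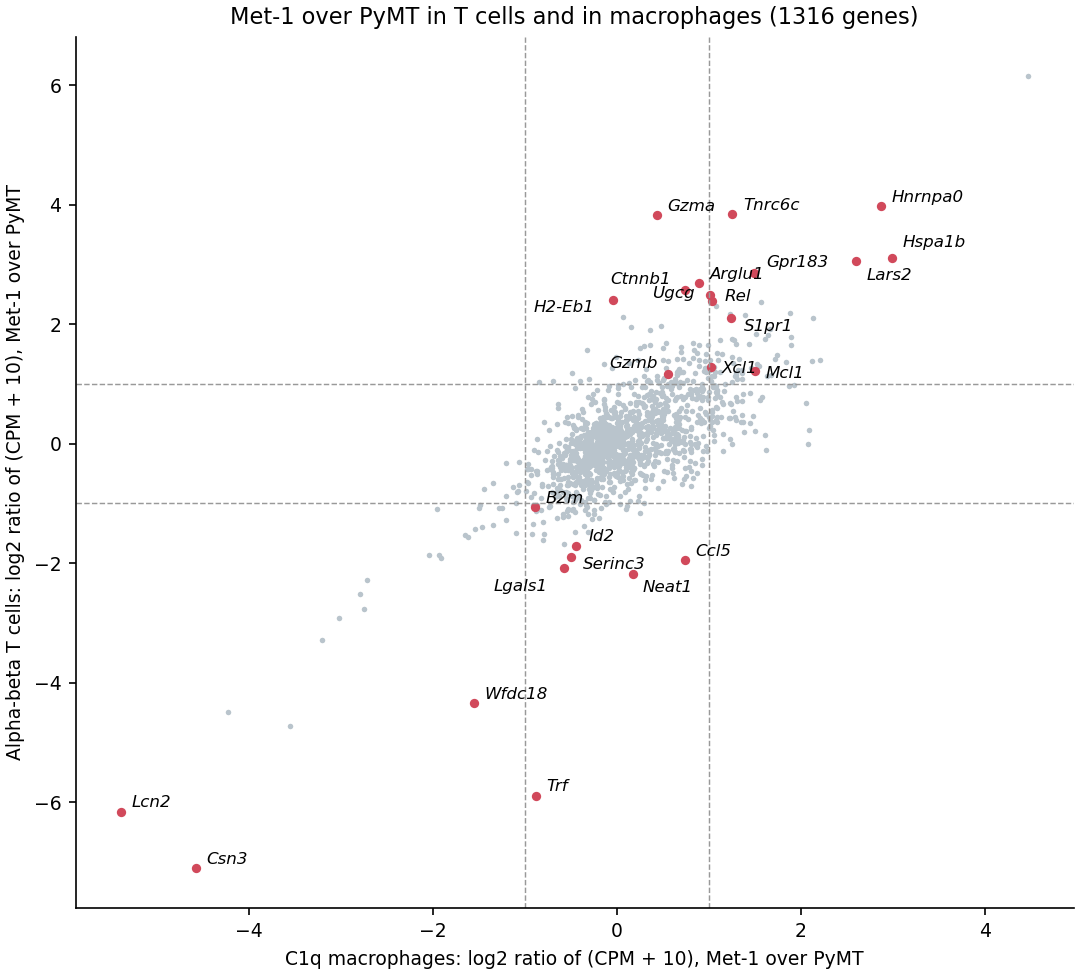
Log2 ratio of (CPM + 10), Met-1 over PyMT, in macrophages (x axis) and in alpha-beta T cells (y axis), for the 1316 genes that entered in both; dashed lines mark 2-fold, red points are named, and the unnamed point at the upper right is a Gm-numbered row that the naming rule leaves out. Hnrnpa0 lies far out on both axes (2.87 and 3.98), while Ccl5 is lower in Met-1 T cells (-1.96) and at 0.74 in macrophages.

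Among other groups, 2 of 4 regulatory genes that entered (Ikzf2 and Capg) were lower in Met-1, with a median log2 of -0.94. Of 13 MHC class I genes B2m, the light chain of MHC class I, was lower (2216 and 4633 CPM; log2 -1.06 in T cells, -0.89 in macrophages and -1.11 in B cells). Of 5 receptor complex genes, 8 interferon genes and 4 costimulation genes, 0 reached 2-fold; Trac stood at 470 and 782 CPM and Cd28 at 189 and 269 CPM. Of 9 glycolysis genes Pkm was lower (227 and 496 CPM), and of 21 immediate early and heat shock genes Hspa1b was higher and Nr4a1 and Nfkbia lower. Gata3 had too few UMIs to enter and was noticed after its values were seen. It stood at 46.2 and 404 CPM (8.73-fold higher in PyMT, 5.87 to 12.9), with a UMI in 43 of 186 and 15 of 29 cells and 17 of its 48 PyMT UMIs in 1 cell. Gzmk (6.6 and 101 CPM) and Pdcd1 (13.9 and 109 CPM) did not enter either, with 5 PyMT cells each.

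EGFP, the label that the sort selected, was read in T cells of both tumours. A UMI of EGFP was present in 181 of 186 Met-1 T cells (97.3%; 86.5% after thinning) at 2236 CPM (2158 to 2317), and in 12 of 29 PyMT T cells (41.4%; 34.5% after thinning) at 1345 CPM (1145 to 1571). Other lymphocytes held it as well, with a UMI in 229 of 243 Met-1 B cells (94.2%), 168 of 169 NK cells and 48 of 48 gamma-delta cells, and in 5 of 31 PyMT B cells (16.1%). PyMT macrophages had a UMI in 147 of 170 cells (86.5%). The 13 adipocyte genes summed to 46.2 CPM in Met-1 T cells and 84.1 CPM in those of PyMT, with Adipoq, Plin1, Cidec and Lep at 0 UMIs. How EGFP RNA came to be in these cells was not tested.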

How the data were processed

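The authors deposited 1 matrix of whole-number UMI counts per library (Met-1: 2451 barcodes; PyMT: 619), made with Cell Ranger 3.1.0 on mm10, per the submitters' processing notes, with an annotation release not given in the sources used here. Of 31054 gene rows, counts were read with Python 3.11.15, NumPy 2.4.6, SciPy 1.17.1, pandas 2.3.3 and scanpy 1.11.5, without clustering or integration. UMIs were summed over the cells of a set and scaled to CPM. Intervals are exact Poisson, conditional binomial (ratios) and Clopper-Pearson (shares). A gene entered a comparison with at least 10 UMIs expected in the smaller set under equal shares; the 11 genes whose limits chose the cells, and Cd8a, Cd8b1 and Cd4, were left out of every comparison. Higher and lower mean a 2-fold ratio of (CPM + 10). A bound against 0 uses 3 UMIs over the set. C1q-high macrophages had at least 10 C1q UMIs. Scrublet called 20 Met-1 barcodes (0.937%, 2 T cells) and 3 PyMT barcodes (0.507%, 0 T cells) as doublets, which were kept. The text names the 12 genes at each end of the ratios (8 for NK and gamma-delta cells; mitochondrial, ribosomal and Gm-numbered rows left out), the 2 at each end of a gene list, the 3 list members with the most UMIs and the 6 markers, as far as a result turns on them; a few genes are not reported here. The cells, lists and rules were chosen with earlier results of these data known. Simulated counts were used to test how ratios are computed. Alternatives changed the cell limits, entry, pseudocount, scaling and the cells left out. Gene positions are from GRCm38.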

Additional observations from a re-analysis of the deposited data

How the results depend on the processing

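Of 166 alternative values for the comparisons, 125 moved by less than the set limits and 41 moved. The CD8 share of cells with a single coreceptor was 92.0% in Met-1 when 2 coreceptor UMIs were asked for and 92.9% after thinning. In PyMT it was 100% with 2 coreceptor UMIs and 100% with 3 Cd3d and Cd3e UMIs. The 131 genes higher and 31 lower in CD8 than CD4 cells became 73 and 10 with 2 coreceptor UMIs, 31 and 4 with 30 expected UMIs, and 68 and 14 with a pseudocount of 50. They became 240 higher with an entry of 50 UMIs in 1 set and 18 lower (against 192 higher) without each gene's top cell. The 147 higher and 74 lower genes between the tumours became 374 and 202 with 1 Cd3d and Cd3e UMI, 413 and 130 with an entry of 50 UMIs, 37 and 23 with 30 expected UMIs, and 76 and 47 with a pseudocount of 50. They became 48 lower without ribosomal and mitochondrial genes, 45 lower (against 218 higher) without top cells, 40 higher with the macrophage ratio taken away, and 95 higher in CD8 cells alone. Against NK cells, 195 higher and 401 lower became 642 higher with 1 Cd3 UMI, 125 higher with 30 expected UMIs, 337 and 819 with a pseudocount of 1, 67 and 112 with 50, and 311 higher without ribosomal and mitochondrial genes. Against gamma-delta cells, 140 higher and 199 lower became 418 higher with 1 Cd3 UMI, 112 lower with an entry of 50 UMIs, 54 and 96 with 30 expected UMIs, 233 and 323 with a pseudocount of 1, 27 and 61 with 50, 281 higher without ribosomal and mitochondrial genes, and 311 lower as a mean over cells. The causes were not tested. Of 1424 values of named genes, 1029 stayed within the counting interval and 2 reversed. Spp1 against NK cells had a log2 ratio of 1.72 with 1 Cd3 UMI, and Ccl1 against gamma-delta cells -0.26 without its top cell. Of 1134 list medians 1093 stayed within the interval and 0 reversed. Leaving out cells with RNA of other types or the 2 deepest PyMT cells, comparing CD8 cells alone, and taking away the macrophage ratio were added after the data were seen. No paired analysis was possible because each group has 1 library, and for the same reason no replicate could be left out. The depth of 118927 UMIs limits what can be read in the PyMT T cells.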

Other observations

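Segments of the rearranged receptor were read in a minority of T cells. A beta chain V segment had a UMI in 27 of 186 Met-1 T cells (14.5%, 9.79 to 20.4), over 17 of 35 segments, with Trbv12-2 in 5 cells, Trbv20 in 4 and Trbv12-1 in 2. It was read in 4 of 48 gamma-delta T cells, 0 of 169 NK cells and 0 of 243 B cells, and in 0 of 29 PyMT T cells, which allows a share of cells with a UMI of up to 10.3% (3 of 29). An alpha chain V segment had a UMI in 26 of 186 Met-1 T cells (14%), over 16 of 128 segments, with Trav5-1 and Trav16 in 4 cells each and Trav7d-3 in 3, and in 3 of 29 PyMT T cells. It was read in 9 of 48 gamma-delta T cells (18.8%), 1 of 169 NK cells and 0 of 243 B cells.

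Few T cells held RNA of dividing cells. This was read from 12 G2 and M phase genes, with Hmgb2, Smc4 and Tubb4b of the list left out. At least 2 UMIs of these 12 genes were present in 14 of 186 Met-1 T cells (7.53%, 4.18 to 12.3; 2.16% after thinning), 9 of them CD8 cells and 0 CD4 cells. The shares were 29.2% of 48 gamma-delta T cells (4.26% after thinning) and 21.9% of 169 NK cells (7.69% after thinning), whose median depths of 9942 and 9774 UMIs were higher. In PyMT 3 of 29 T cells held as many.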
